A study of Mus musculus with 28 samples.

Results

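Camta1 and Camta2 encode the mouse calmodulin-binding transcription activators, and they are the 2 members examined here out of 45513 genes counted in each library. Camta1 was chosen by its footprint difference in MN1 cells expressing hTDP-43 A315T, and Camta2 was added as its paralog. From their ribosome profiling, the authors took Camta1 among mRNAs whose translation changed only with the mutant protein. They also kept only genes that were altered in footprints and not in total mRNA. A missing footprint call for Camta1 with hTDP-43 and a missing call in total mRNA were thus part of the choice. In later assays of the paper, hTDP-43 with or without the mutation raised a Camta1 reporter and CAMTA1 protein in MN1 cells. The paper also reported that the mutant moved Camta1 mRNA to fractions with more ribosomes and that TDP-43 bound this mRNA. The comparison here asks whether the footprint difference seen for Camta1 with hTDP-43 A315T was shared by Camta2, across cell types, genotypes and library types. Values of Camta1 that rest on the MN1 libraries with hTDP-43 A315T are therefore given as a description, without a test.

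Ribosome footprints, the mRNA fragments that a ribosome shields from nuclease, and fragmented total mRNA were sequenced from 14 cultures, in 28 libraries. MN1 is a clonal mouse line made by fusing neuroblastoma cells with motor neurons of the spinal cord. It was transiently transfected with GFP, human wild-type TDP-43 (hTDP-43) or human TDP-43 carrying the ALS-linked mutation A315T (hTDP-43 A315T), with 2 cultures per group, and all of these cultures received cycloheximide before lysis. Cortical neurons were taken at embryonic day 16 from C57BL/6J mice, grown for 14 days in vitro with Ara-C, and not exposed to cycloheximide before lysis. The neurons were non-transgenic (WT, 2 cultures), hemizygous for hTDP-43 under the prion protein promoter (3 cultures) or hemizygous for hTDP-43 A315T under the same promoter (3 cultures). Endogenous mouse TDP-43 was present in every group. Within a cell type the labels tie each replicate number to a date, except for the year of 1 GFP footprint library.

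CAMTA proteins bind DNA through a CG-1 domain and bind calmodulin, the main calcium sensor of the cytoplasm, through IQ motifs. Camta1 is expressed widely in the brain, and its disruption in humans causes cerebellar ataxia with intellectual disability. Camta2 is known from heart muscle, where class II histone deacetylases such as HDAC5 hold it in check until protein kinases C and D export them from the nucleus, and where it acts with the cardiac factor Nkx2-5.

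In the GRCm38 annotation used for counting, Camta1 (ENSMUSG00000014592) lies on the minus strand of chromosome 4, from 150917322 to 151861876, a span of 944.6 kb with 14.57 kb of exons. Camta2 (ENSMUSG00000040712) lies on the minus strand of chromosome 11, from 70669463 to 70688105, a span of 18.6 kb with 5.21 kb of exons. Within or across the span of Camta1 lie 7 other genes, none of which shares an exon base with it, and Camta2 overlaps no gene. TDP-43 is known to bind UG-rich RNA, so the longest alternating TG run on the mRNA strand of the exons was read from the GRCm38 genome for each gene, and the sites are shown because they are the nearest match to that preference in the counted sequence. Capitals mark the run.
Camta1: cagaggggtggGTGTGTGgtaaacgggta
Camta2: ccgtggggagggGTGTGTacataactgtaa
The Camta1 site, at chr4:151062102-151062130, was in an untranslated region in 5 of 13 GENCODE M21 transcripts, and its exons held 3 runs of 7 bases. The Camta2 site, at chr11:70669619-70669648, was in an untranslated region in 7 of 9 transcripts, and its run of 6 bases was the only one of that length. Both runs were short. Of the 504 other protein-coding genes whose exon length was within 20% of that of Camta1, 95.8% held a run at least as long, and of the 3712 such genes for Camta2, 96.0% did. Over the whole gene, introns included, runs of at least 12 bases numbered 142 in Camta1 (15.03 per 100 kb, the longest 59 bases) and 5 in Camta2 (26.8 per 100 kb, the longest 37 bases), and all of these runs lay outside the counted exons. These matches describe letters in the sequence and are not binding sites measured here.

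Footprint libraries held 166064 to 2528820 counts on genes, and total mRNA libraries 600385 to 6969578. Among MN1 footprint libraries, 3 counts corresponded to 2.46 to 9.03 CPM (counts scaled to a fixed library size). Tardbp, the mouse gene of TDP-43, in MN1 total mRNA was at 266.0 to 306.8 CPM with GFP, 431.0 to 513.6 in the hTDP-43 group and 447.1 to 484.9 in the hTDP-43 A315T group. The part of reads from the human sequence in these values was not tested. Summed over 6 neuronal markers, MN1 footprint libraries held 892 to 1053 CPM and neuron footprint libraries 7697 to 9050 CPM, and Rbfox3 had 0 counts in 4 of 6 MN1 footprint libraries. Of the 7 motor neuron markers, Isl1, Isl2 and Slc18a3 were present in every MN1 library, Isl2 with only 18 counts over the MN1 footprint libraries. Mnx1 had 0 counts in 4 of the MN1 footprint libraries, Chat in 2, and Lhx3 and Slc5a7 in 1 each. Over these libraries Chat held 8 counts and Slc5a7 held 6, so both were near the floor. Markers of cycling cells summed to 763 to 1154 CPM in MN1 footprints and to 1.79 to 6.52 CPM in neuron footprints.

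Camta1 footprints in MN1 cells were high in the hTDP-43 A315T library of replicate 2 and varied widely between the replicate numbers. With GFP, Camta1 had 30.1 CPM in replicate 1 and 99.4 CPM in replicate 2 (28 and 86 counts). With hTDP-43 it had 28.4 and 197.8 CPM (18 and 64 counts). With hTDP-43 A315T it had 60.8 and 637.4 CPM (69 and 324 counts). In each replicate number the hTDP-43 A315T library was the highest, but its replicate 1 lay below the GFP and hTDP-43 libraries of replicate 2, so the groups overlapped. Set against GFP of the same replicate number, Camta1 was 2.02-fold higher in replicate 1 and 6.41-fold higher in replicate 2, and set against hTDP-43 it was 2.15-fold and 3.22-fold higher. The fitted log2 differences in these comparisons, by which the gene was chosen, were 2.38 (SE 0.82, n = 2 and 2) against GFP and 1.73 (SE 0.91) against hTDP-43. Without the hTDP-43 A315T library of replicate 2 they were -0.075 and -0.70, and against hTDP-43 the difference was 2.63 without the hTDP-43 A315T library of replicate 1, 0.76 without the hTDP-43 library of replicate 1 and 3.56 without that of replicate 2.

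Camta2 footprints in the same cultures were low and close together. With GFP, Camta2 had 26.9 and 15.03 CPM in replicates 1 and 2 (25 and 13 counts). With hTDP-43 it had 23.6 and 15.5 CPM (15 and 5 counts), and with hTDP-43 A315T 29.1 and 19.7 CPM (33 and 10 counts). All 3 groups overlapped, and replicate 2 was below replicate 1 in each of them, the opposite order to Camta1. The log2 difference between hTDP-43 A315T and GFP was 0.28 (SE 0.40, edgeR quasi-likelihood adjusted p = 1.00) and that between hTDP-43 A315T and hTDP-43 was 0.31 (SE 0.44, edgeR adjusted p = 1.00). Against the GFP library of the same number, Camta2 was 1.08-fold and 1.31-fold with hTDP-43 A315T. Of all genes tested, 0.0115% were called (adjusted p below 0.05) between hTDP-43 A315T and GFP, a single gene, Gm13886, named after its values were seen, and 0% against hTDP-43. The difference between the 2 genes was not tested, since the Camta1 value chose the gene, and with 5 to 33 counts per library the depth could not show a small change of Camta2.

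**Figure D1:**
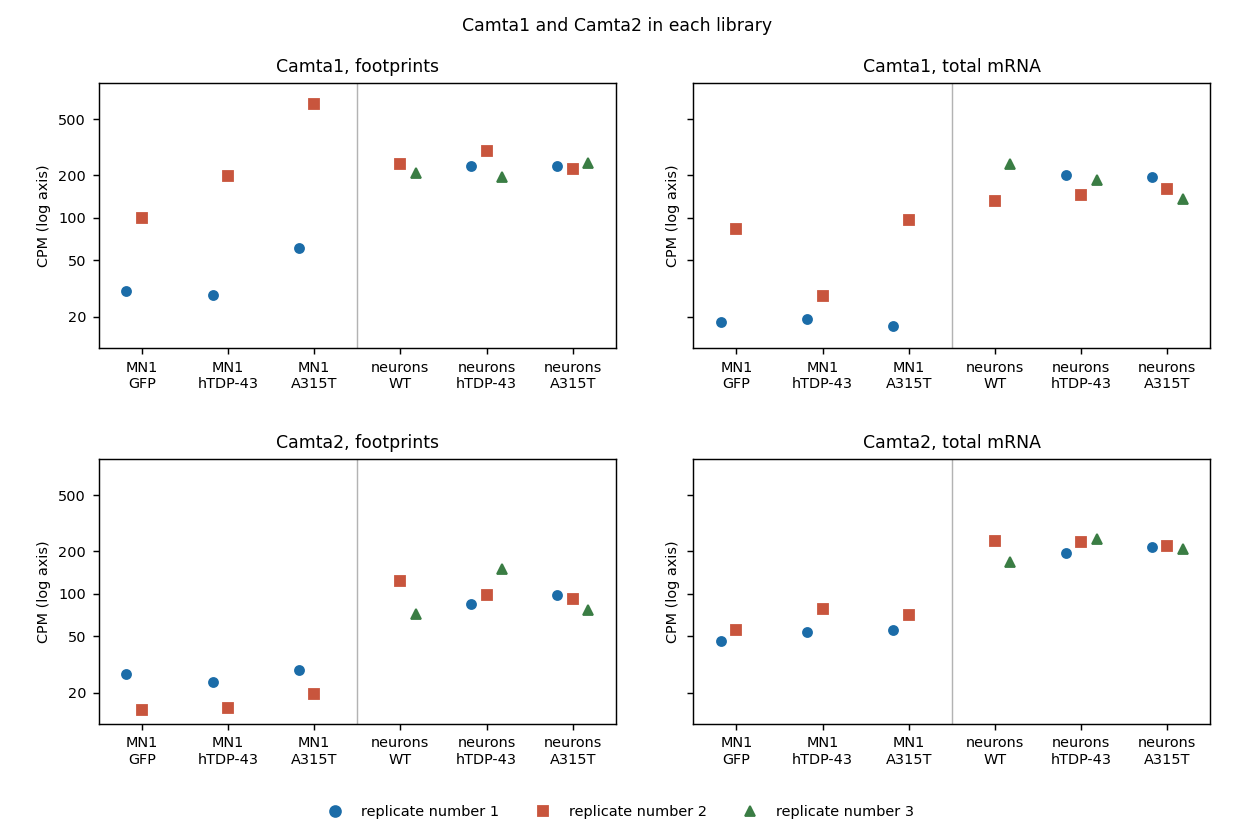
Camta1 (top) and Camta2 (bottom) in CPM on a log axis, in footprints (left) and total mRNA (right), with 1 point per library coloured by replicate number; CPM were scaled separately per cell type and library type. In MN1 footprints Camta1 runs from 28.4 to 637.4 CPM while Camta2 stays between 15.03 and 29.1 CPM.

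hTDP-43 without the mutation gave no called footprint difference for either gene. Against GFP, the log2 difference in MN1 footprints was 0.63 for Camta1 (SE 0.70, edgeR adjusted p = 1.00) and -0.03 for Camta2 (edgeR adjusted p = 1.00), where 0% of genes were called. Camta1 was 0.94-fold of GFP in replicate 1 and 1.99-fold in replicate 2. Without the hTDP-43 library of replicate 1 the difference for Camta1 was 1.62 and was called (edgeR adjusted p = 0.0050), and without that of replicate 2 it was -1.17. This comparison shares its GFP libraries with the one that chose Camta1. The lack of a Camta1 call here was also part of that choice, so it is no independent result.

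In MN1 total mRNA, the hTDP-43 library of replicate 2 set Camta1 apart from the footprint pattern. Replicates 1 and 2 had 18.4 and 83.9 CPM of Camta1 with GFP. In the hTDP-43 cultures they had 19.2 and 27.8 CPM, and in the hTDP-43 A315T cultures 17.2 and 96.3 CPM. In replicate 1 the 3 groups lay within 2.0 CPM of each other, and in replicate 2 hTDP-43 was at 0.33-fold of GFP while hTDP-43 A315T was at 1.15-fold. The fitted log2 difference between hTDP-43 A315T and GFP, which is a description, was 0.02, and that between hTDP-43 A315T and hTDP-43 was 1.24 (SE 0.66). A missing total mRNA call for Camta1 was part of its choice, so the lack of such a call is no independent result. Between hTDP-43 and GFP the log2 difference was -1.19 (SE 0.61, edgeR adjusted p = 1.00). Blocked on the replicate number it was -1.07 (SE 0.20) and passed the test (edgeR adjusted p = 5.9e-05), in a fit where 0.472% of genes were called against 0.01% without the block. That call rests on replicate 2, which alone gave -1.59, while replicate 1 alone gave 0.06. Without the GFP library of replicate 1 the unblocked difference was -1.85 (edgeR adjusted p = 0.00038), and without that of replicate 2 it was 0.34.

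Camta2 total mRNA was 46.4 and 55.5 CPM in the GFP cultures, 53.5 and 77.5 CPM in those of hTDP-43 and 55.0 and 71.1 CPM in those of hTDP-43 A315T. Both TDP-43 groups were above GFP of the same number in both replicates, by 1.15-fold to 1.395-fold, but overlapped GFP across numbers. The log2 differences against GFP were 0.34 for hTDP-43 (SE 0.25, edgeR adjusted p = 1.00) and 0.29 for hTDP-43 A315T (SE 0.21, edgeR adjusted p = 0.85). That between the TDP-43 groups was -0.05 (SE 0.24, edgeR adjusted p = 1.00). The shares of all genes called were 0.01% for hTDP-43 against GFP, 0.00965% for hTDP-43 A315T against GFP, each time Gm13886, and 0% between the TDP-43 groups.

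Camta1 in MN1 cells was higher in replicate 2 than in replicate 1 in every group and library type. On the log2 CPM scale, replicate 2 exceeded replicate 1 in footprints by 1.63 in GFP, 2.65 in hTDP-43 and 3.23 in hTDP-43 A315T cultures. In total mRNA it did so by 2.20, 0.51 and 2.39. Averaged over the 3 groups these differences were 2.50 and 1.70, where the median absolute difference of all genes was 0.22 in footprints and 0.21 in total mRNA. Camta2 moved by -0.66 in footprints and 0.39 in total mRNA. No test was made between the replicate numbers, and their part in the Camta1 values of the hTDP-43 A315T cultures was not tested.

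Relative to total mRNA, Camta1 footprints in MN1 cells were high in 3 cultures. The ratio of footprint to total mRNA CPM, which serves as a relative measure of ribosome occupancy, was 1.64 and 1.18 for GFP in replicates 1 and 2, 1.48 and 7.11 for hTDP-43, and 3.54 and 6.62 for hTDP-43 A315T. The high ratio was thus shared by both hTDP-43 A315T cultures and by the hTDP-43 culture of replicate 2. For Camta2 the ratio was 0.58 and 0.27 for GFP, 0.44 and 0.20 for hTDP-43, and 0.53 and 0.28 for hTDP-43 A315T, with replicate 2 the lower in each group.

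In the test of the group difference in footprints relative to that in total mRNA (the interaction with library type), the log2 value between hTDP-43 and GFP was 1.83 for Camta1 (SE 1.16, edgeR adjusted p = 1.00) and -0.39 for Camta2 (SE 0.53, edgeR adjusted p = 1.00). For hTDP-43 A315T against GFP it was 2.33 for Camta1 (SE 1.39), a description, and -0.02 for Camta2 (edgeR adjusted p = 1.00). In both interactions 0% of genes were called. The Camta1 footprints and total mRNA with hTDP-43 entered the choice of the gene. The Camta1 value for hTDP-43 against GFP is therefore not independent of that choice. In neurons the same interactions against WT were 0.25 and 0.19 for Camta1 (SE 0.37 and 0.40) and -0.24 and -0.04 for Camta2, with hTDP-43 A315T first and an edgeR adjusted p of 1.00 for each, and 0% of genes were called.

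**Figure D2:**
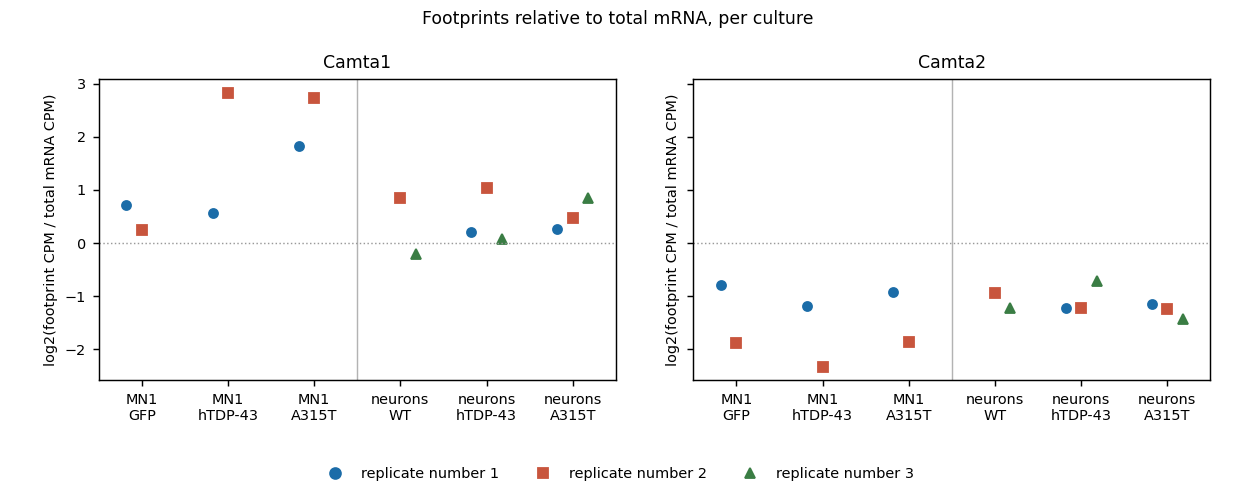
Log2 of footprint CPM over total mRNA CPM for Camta1 (left) and Camta2 (right), 1 point per culture, coloured by replicate number. The Camta1 values lie between -0.21 and 2.83 and the Camta2 values between -2.33 and -0.71, so the ranges of the 2 genes do not overlap.

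Camta1 had more footprints per total mRNA than Camta2 in 14 of 14 cultures. In neurons the gap in log2 ratio ran from 0.77 to 2.29 (median 1.56, 8 cultures), and in MN1 cells from 1.496 to 5.16 (median 2.44, 6 cultures). Total mRNA was selected by poly(A) and exon counts include untranslated regions, so a constant gap between 2 genes also holds their different lengths of untranslated sequence, whose part was not tested. Per kilobase of exon, Camta2 total mRNA was the more abundant in neurons, at 32.2 to 47.0 CPM per kb against 9.08 to 16.6 for Camta1. Neuron footprints per kilobase overlapped, at 13.7 to 28.8 for Camta2 and 13.4 to 20.3 for Camta1. In MN1 total mRNA Camta2 was again above Camta1 (8.90 to 14.9 against 1.18 to 6.61 CPM per kb), and in MN1 footprints the ranges overlapped (2.89 to 5.59 against 1.95 to 43.8 CPM per kb).

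In cortical neurons neither gene passed the test between genotypes. Camta1 footprints were 239.5 and 209.4 CPM in WT (replicates 2 and 3), 233.8, 296.5 and 195.6 CPM in hTDP-43 neurons, and 232.9, 223.5 and 246.3 CPM in hTDP-43 A315T neurons (replicates 1 to 3). The 3 groups overlapped, and the 8 values spanned 1.52-fold, against 22.5-fold among the 6 MN1 footprint libraries. The highest and lowest of the 8, in hTDP-43 replicates 2 and 3, rested on 57 and 30 counts in the 2 shallowest footprint libraries. The log2 differences were 0.06 for hTDP-43 A315T against WT (SE 0.15), -0.04 for hTDP-43 A315T against hTDP-43 (SE 0.16) and 0.10 for hTDP-43 against WT (SE 0.19), each with an edgeR adjusted p of 1.00. In total mRNA Camta1 had 132.2 and 242.4 CPM in WT, 203.0, 144.6 and 186.5 CPM in hTDP-43 neurons, and 194.9, 161.2 and 136.3 CPM in hTDP-43 A315T neurons, and both WT values lay outside the range of the hTDP-43 A315T cultures, on opposite sides of it. The 3 log2 differences lay between -0.20 and -0.07 (edgeR adjusted p = 1.00).

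Camta2 footprints in neurons were 122.7 and 71.6 CPM in WT, 84.04, 98.8 and 150.0 CPM in hTDP-43 neurons, and 97.5, 91.9 and 76.6 CPM in hTDP-43 A315T neurons. WT replicate 3 was the lowest (40 counts) and hTDP-43 replicate 3 the highest (23 counts, in the shallowest library), so the hTDP-43 group overlapped WT. The log2 differences were -0.18 for hTDP-43 A315T against WT (SE 0.23), -0.16 for hTDP-43 A315T against hTDP-43 (SE 0.22) and -0.04 for hTDP-43 against WT (SE 0.26), each with an edgeR adjusted p of 1.00. In total mRNA Camta2 had 236.4 and 167.6 CPM in WT, 195.0, 231.5 and 244.6 CPM in hTDP-43 neurons, and 215.1, 216.5 and 206.8 CPM in hTDP-43 A315T neurons, and its 3 log2 differences lay between -0.07 and 0.15 (edgeR adjusted p = 1.00). Over the 6 neuron comparisons 0% of genes were called. Of the comparisons in which edgeR called no gene, 15 in all with the interactions, 44 to 419 genes had an unadjusted p below 0.05, and DESeq2 called 0 to 11 genes.

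**Figure D3:**
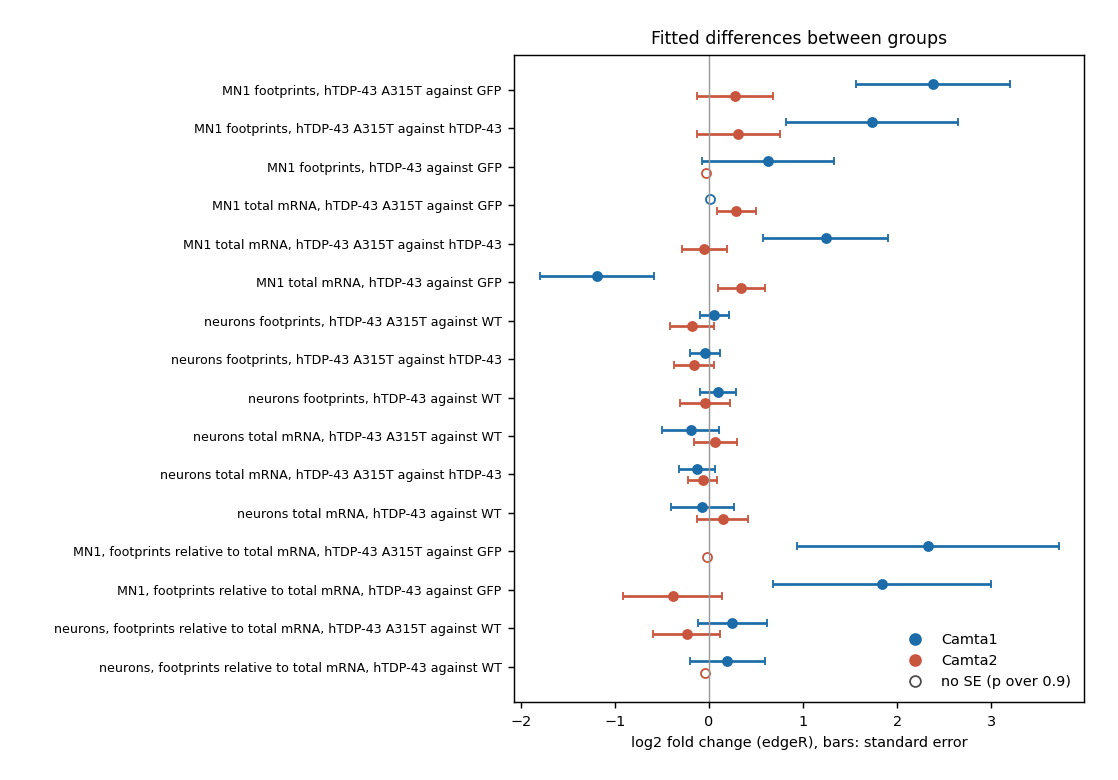
Fitted log2 fold changes of Camta1 (blue) and Camta2 (orange) with standard errors (bars), between groups of 1 cell type and in the interactions with library type. Camta1 lies at 2.38 and 1.73 in the MN1 footprint comparisons of hTDP-43 A315T, which chose it, whereas Camta2 lies between -0.39 and 0.34 throughout.

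Set between the cell types, the log2 difference of hTDP-43 A315T against its control was lower in neurons than in MN1 footprints by 2.29 for Camta1 (SE 0.89, a difference of -2.29). This value is a description, since it holds the MN1 comparison that chose the gene. For Camta2 it was -0.47 (SE 0.47, edgeR adjusted p = 1.00). In total mRNA the corresponding values were -0.31 for Camta1 (SE 0.85), a description, and -0.30 for Camta2 (SE 0.32, edgeR adjusted p = 1.00), and 0% of genes were called in either library type.

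The ratio of Camta1 to Camta2 counts within a library needs no scaling between libraries. In MN1 footprints it was 1.12 and 6.41 for GFP, 1.19 and 11.7 for hTDP-43, and 2.07 and 30.9 for hTDP-43 A315T (replicates 1 and 2, 0.5 added to each count). In MN1 total mRNA it was 0.40 and 1.51, 0.36 and 0.36, and 0.31 and 1.35. In footprints every replicate 2 ratio was above every replicate 1 ratio, and in total mRNA the hTDP-43 culture of replicate 2 stayed with replicate 1. Neuron footprints had ratios of 1.30 to 3.20 and neuron total mRNA of 0.56 to 1.45 over 8 cultures, without a separation of the genotypes.

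Of 8 tests of the log2 ratio, none passed (two-sided exact permutation tests, Benjamini-Hochberg adjusted p = 1.00 for each). The difference between hTDP-43 and GFP in MN1 cells was 0.48 in footprints (exact permutation p = 0.67) and -1.10 in total mRNA (exact permutation p = 0.33, the smallest that 2 against 2 allows). The Camta1 footprints and total mRNA of this comparison were part of the choice of the gene. In neurons hTDP-43 A315T differed from WT by 0.15 in footprints (exact permutation p = 0.60) and by -0.24 in total mRNA (exact permutation p = 0.80), where the smallest possible p is 0.20, and from hTDP-43 by 0.26 and -0.05 (exact permutation p = 0.80 and 0.90, the smallest possible 0.10). hTDP-43 differed from WT by -0.11 and -0.18 (exact permutation p = 1.00 and 0.80). Without a test, since the hTDP-43 A315T libraries of MN1 cells enter them, the further differences are a description. The log2 ratio differed by -0.84 in footprints and 0.50 in total mRNA between all 8 neuron and all 6 MN1 cultures, and by 1.58 and -0.26 between hTDP-43 A315T and GFP in MN1 cells. Between hTDP-43 A315T and hTDP-43 in MN1 cells it differed by 1.10 in footprints and 0.85 in total mRNA.

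**Figure D4:**
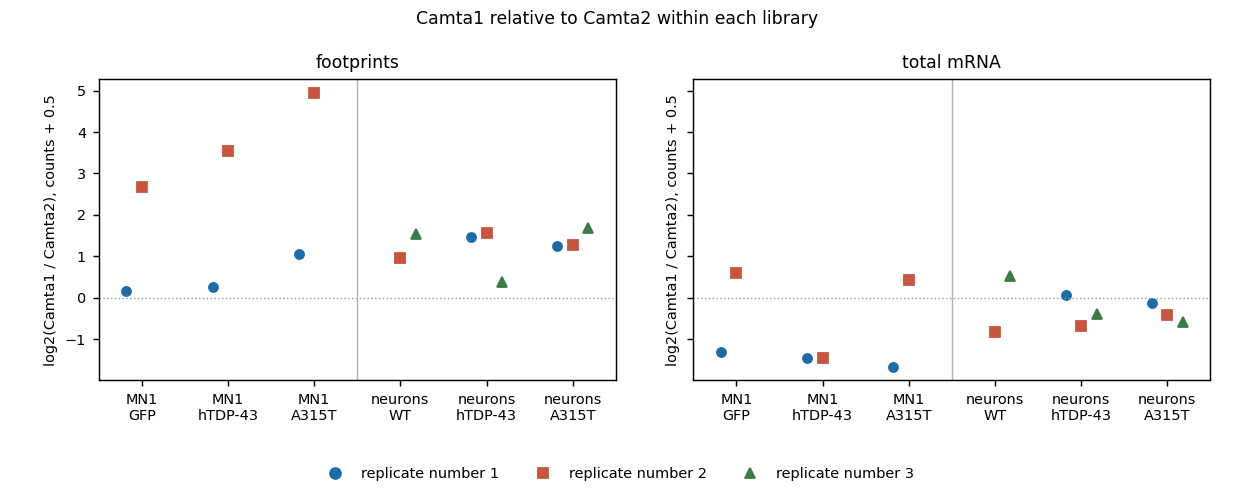
Log2 of Camta1 over Camta2 counts, each with 0.5 added, in footprints (left) and total mRNA (right), 1 point per library coloured by replicate number. MN1 footprints reach from 0.16 to 4.95 and split by replicate number, and neuron footprints lie between 0.38 and 1.68.

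Both genes were higher in neurons than in MN1 cells when WT neurons were set against GFP-transfected MN1 cells. Camta1 was higher by 2.00 on the log2 scale in footprints (SE 0.69, edgeR adjusted p = 0.0136) and by 2.28 in total mRNA (SE 0.65, edgeR adjusted p = 0.0067). Camta2 was higher by 2.44 in footprints (SE 0.33, edgeR adjusted p = 1.29e-06) and by 2.45 in total mRNA (SE 0.25, edgeR adjusted p = 9.5e-07). For Camta2 the cell types did not overlap in any group, at 71.6 to 150.0 CPM in neuron footprints against 15.03 to 29.1 CPM in MN1 footprints. For Camta1 they overlapped in footprints, since 197.8 CPM with hTDP-43 and 637.4 CPM with hTDP-43 A315T reached or passed the neuron range of 195.6 to 296.5 CPM. These CPM of both genes were scaled separately per cell type. Most genes differed between the cell types, with 70.1% called in footprints and 66.4% in total mRNA. The GFP libraries set against WT neurons are also the reference in the comparison that chose Camta1, so its test here is not independent of that choice.

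The Camta1 calls depended on the GFP culture of replicate 1, without which the differences were 1.47 (edgeR adjusted p = 0.12) and 1.57 (edgeR adjusted p = 0.062), and in footprints DESeq2 gave 1.95 (adjusted p = 0.091). Averaged over the 3 groups of each cell type, the hTDP-43 A315T cultures included, the Camta1 footprint difference was 1.08. Cell type, cycloheximide and culture date cannot be told apart here, nor can fewer cells of a type and less RNA per cell.

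By mean footprint CPM, Camta1 stood in the order MN1 hTDP-43 A315T (349.1 ± 407.7, SD, n = 2), hTDP-43 neurons (242.0 ± 50.9, n = 3), hTDP-43 A315T neurons (234.2 ± 11.5, n = 3), WT neurons (224.4 ± 21.3, n = 2), MN1 hTDP-43 (113.1 ± 119.8, n = 2) and MN1 GFP (64.8 ± 49.0, n = 2). CPM were scaled separately per cell type, so a step between a neuron group and an MN1 group holds no scaling between the cell types. No step between adjacent groups in that order exceeded the SD of both. The steps between a neuron group and an MN1 group exceeded the SD of the neuron group but not the wide SD of the MN1 group. For Camta2 the order was hTDP-43 neurons (110.9 ± 34.6), WT neurons (97.1 ± 36.1), hTDP-43 A315T neurons (88.7 ± 10.8), and then MN1 hTDP-43 A315T (24.4 ± 6.66), GFP (20.97 ± 8.40) and hTDP-43 (19.5 ± 5.78). Only the step from neurons to MN1 cells exceeded the SD of both neighbours.

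None of the listed genes around calmodulin passed the test between TDP-43 groups, where 0% to 0.0115% of all genes were called. At that share a lack of calls is no result about the lists. Between the cell types most of the listed genes passed. Of 39 genes in 5 lists (calmodulin genes, CAMTA2 regulators and partners, calmodulin-dependent kinases and calcineurin, calmodulin-binding buffers, and other calcium-dependent transcription factors), 20 to 33 were tested in each pairwise comparison of groups, with median log2 differences between -0.098 and 0.088 where those of all genes lay between -0.01 and 0.01. Between WT neurons and GFP MN1 cells, 27 of 32 were higher in neuron footprints, 3 were lower and 2 did not pass, with a median of 2.12 against 0.04 over all genes, of which 37% were called higher and 33.1% lower. In total mRNA 27 of 35 were higher, 3 were lower and 5 did not pass, with a median of 1.89 against 0.12 over all genes, of which 36% were called higher and 30.4% lower. Among the genes higher in footprints, Camk1g, Mef2c, Nrgn and Pcp4 had 0 or 1 count in the GFP MN1 libraries, and Hdac9 had 0 to 5. Of the genes lower in footprints, Nkx2-5 had 0 or 1 count in the WT neuron libraries, Nfatc3 had 2 to 5 and Nfatc1 had 0 to 6. Such genes passed the filter only through the libraries of the cell type in which they were high. Their part in these counts is no independent result, and the same holds for Camk2b, Camk2a and Camk4, described below.

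The calmodulin genes Calm2 and Calm3 were higher in neurons. In footprints the log2 difference was 2.29 for Calm2 (SE 0.20) and 2.45 for Calm3 (SE 0.21), and in total mRNA 1.70 and 2.28 (edgeR adjusted p = 6.2e-05 or less in each). Their paralogs and processed copies make these counts uncertain. In MN1 footprints with hTDP-43 A315T against GFP they differed by -0.19 and 0.11 (edgeR adjusted p = 1.00). In MN1 total mRNA Calm2 differed by -0.41 (SE 0.16, edgeR adjusted p = 0.85), and in the fit blocked on the replicate number by -0.41 (SE 0.11, edgeR adjusted p = 0.031), a call among 2.73% of genes in that fit.

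The known regulators of Camta2 did not differ alike between the cell types. Hdac5, the class II deacetylase that represses Camta2, was higher in neurons by 2.63 in footprints (SE 0.25, edgeR adjusted p = 9.2e-09) and 2.81 in total mRNA (SE 0.35, edgeR adjusted p = 6.5e-06). Nkx2-5, the cardiac homeobox partner of Camta2, had the opposite distribution: it was at 54.9 to 71.7 CPM in GFP MN1 footprints and had 0 or 1 count in WT neuron footprints. In MN1 footprints with hTDP-43 A315T against GFP, Hdac5 differed by -0.57 (SE 0.40) and Nkx2-5 by 0.13 (SE 0.23), both with an edgeR adjusted p of 1.00. Prkce, a protein kinase C, was higher in neuron total mRNA by 4.14 (SE 0.30, edgeR adjusted p = 3.8e-08).

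The smallest adjusted p-values among the lists belonged to calcium effectors of forebrain neurons. Camk2b and Camk2a, subunits of the synaptic kinase CaMKII, were higher in neuron footprints by 7.85 (SE 0.31) and 6.69 (SE 0.33), and in total mRNA by 7.53 (SE 0.36) and 6.85 (SE 0.41). Gap43, a calmodulin-binding protein of growing axons, was higher in footprints by 4.40 (SE 0.25) and in total mRNA by 4.08 (SE 0.31). Mef2c, an activity-dependent transcription factor, was at 524.4 to 697.9 CPM in WT neuron footprints and had 0 or 1 count in GFP MN1 footprints, and Camk4, a nuclear CaM kinase, was at 159.3 to 210.1 CPM against 2 or 3 counts. Gap43 passed the edgeR test in both library types with adjusted p-values of 4.9e-08 or less. In GFP MN1 footprints Camk2b had 3 to 6 counts and Camk2a 5 to 7. These genes, Mef2c and Camk4 were kept by the footprint filter only through the neuron libraries. Their footprint differences are therefore a description.

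**Figure D5:**
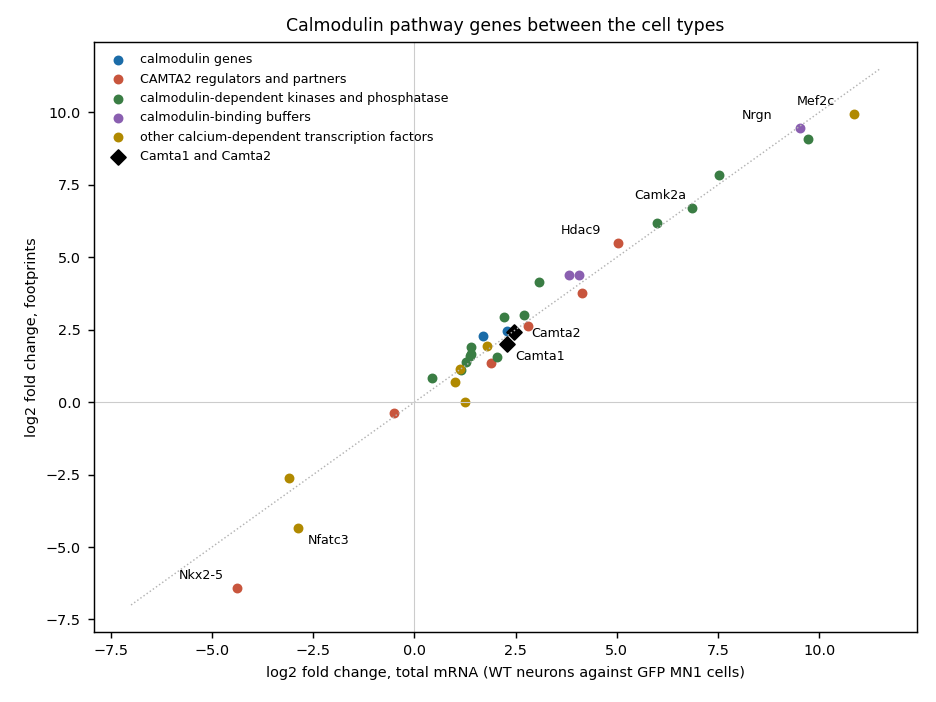
Log2 fold change between WT neurons and GFP MN1 cells in total mRNA (horizontal) and footprints (vertical) for the 32 list genes tested in both and for Camta1 and Camta2 (black diamonds); the dotted line marks equal change. Camta1 and Camta2 lie near the calmodulin genes, between 2.00 and 2.45 on both axes.

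Genes next to the members on the chromosome did not pass the test in MN1 footprints between hTDP-43 A315T and GFP. Of all genes, 0.0115% were called there, so a lack of calls is no result about these neighbours. Park7, 2.88 kb from the 3' end of Camta1, differed by -0.02 between hTDP-43 A315T and GFP. Dnajc11, 71.8 kb beyond its other end, differed by -0.18 (SE 0.19), and Vamp3, which lies within the span of Camta1 on the same strand, by -0.29 (SE 0.26). Beside Camta2, Spag7 differed by 0.00 and Kif1c by -0.05 (SE 0.29). All had an edgeR adjusted p of 1.00.

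The genes whose levels were most like those of each member differed between the members. Over 14 footprint libraries and 10698 genes, log2 CPM of Camta1 correlated most with Pnrc1 (Pearson r = 0.88), Jak2 (0.88) and Ypel2 (0.86), and that of Camta2 with Ccnd2 (0.99), Ppp2r2c (0.99) and Lrrc4b (0.99). Over 14 total mRNA libraries and 12801 genes, Camta1 was closest to Pcdhb20 (0.97), Usp27x (0.97) and Timp4 (0.97), and Camta2 to Rbfox3, the neuronal nuclear antigen NeuN (1.00), Brsk1 (1.00) and Adgrb2 (1.00). Camta1 and Camta2 correlated with each other at 0.48 in footprints and 0.90 in total mRNA. By r with Camta1, Camta2 ranked only 3373 among the genes in footprints and 1073 in total mRNA. By r with Camta2, Camta1 ranked 4512 and 3400. The 14 libraries share the split between 2 cell types, whose part in these correlations was not tested, and no p is given.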

How the data were processed

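Ribosome footprints and total mRNA of MN1 cells (6 cultures) and cortical neurons (8 cultures) were analysed. The authors trimmed reads with cutadapt 1.8.1, removed reads that Bowtie2 aligned to non-coding RNA, aligned the rest to GRCm38 with TopHat2 and counted reads on exons with featureCounts 1.4.4 (Ensembl annotation, no strand setting; reads overlapping several genes were not counted). The deposited values are these raw counts. Groups and replicate numbers came from the labels. Pairs of groups were fitted with edgeR 4.0.16 in R 4.3.3 on the libraries of the 2 groups (filterByExpr with a minimum count of 10 and a minimum total of 15, TMM, quasi-likelihood test, Benjamini-Hochberg adjustment over all genes, threshold 0.05). Interactions with library type used all libraries of the 2 groups, and cell types were compared in 1 fit over the 14 libraries of a library type. SEs were derived from the log2 fold change and the F statistic, and none is given for p above 0.9. CPM are on the TMM scale within a cell type and library type. The scripts were tested on simulated data.

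Replicate numbers mark shared dates, so the block on the replicate number was an alternative. Deviations of same-numbered libraries from their group means correlated at a mean of 0.27 (MN1 footprints), 0.31 (MN1 total mRNA), 0.10 (neuron footprints) and 0.17 (neuron total mRNA). Each culture is taken as a replicate, and MN1 cultures come from 1 clonal line. Other alternatives were DESeq2 1.42.0 (its size factors and its test), no filter, all groups in 1 fit, the 10 most counted genes of each library left out, and each replicate left out. Ratio tests were made with scipy 1.17.1. The ratio of all neurons against all MN1 cultures, planned as a test, is given without one, because it holds libraries that chose Camta1. Coordinates, transcripts and bases came from GENCODE M21 and the GRCm38.p6 sequence. The members and the gene lists were chosen with earlier results of these data known. One gene of the lists is not reported here. Genes named from the lists were Calm2, Calm3, Hdac5 and Nkx2-5 and up to 5 per comparison with the smallest adjusted p among those that passed; likeness was Pearson's r with the 3 highest named, and neighbours were the nearest genes kept by the filter.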

Additional observations from a re-analysis of the deposited data

How the results depend on the processing

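The replicate block of the difference between the cell types was not run: No paired analysis was possible because the cell types share no culture date. Elsewhere the block changed the call of Camta1 in MN1 total mRNA between hTDP-43 and GFP (-1.07, called; replicate number 1 alone, an alternative chosen after seeing the data, 0.060) and of Calm2 there with hTDP-43 A315T, and it changed no other call of a tested result given here; Camta1 in the comparisons that chose it was not tested under the block. In MN1 total mRNA between the TDP-43 groups, replicate number 1 alone gave -0.16 for Camta1. The block turned small Camta2 differences to 0.26 (neuron footprints, hTDP-43 against WT; DESeq2 gave 0.076), 0.027 (MN1, footprints relative to total mRNA, hTDP-43 A315T against GFP) and 0.025 (neurons, the same with hTDP-43 against WT). DESeq2 gave 1.95 for Camta1 footprints between the cell types, no longer past the threshold.

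Leaving out 1 culture at a time moved Camta1 in MN1 footprints over -0.075 to 3.47 (hTDP-43 A315T against GFP), -0.70 to 3.56 (against hTDP-43) and -1.17 to 1.73 (hTDP-43 against GFP), and in MN1 total mRNA over -0.43 to 2.05 (hTDP-43 A315T against hTDP-43) and -1.85 to 0.34 (hTDP-43 against GFP). Its MN1 interaction with library type for hTDP-43 A315T ran from 1.54 to 2.45, that of the cell types from -3.37 to 0.17 in footprints and from -1.87 to 1.34 in total mRNA, and the difference between the cell types from 1.47 to 3.13 and from 1.57 to 3.83. In neurons Camta1 ran from -0.029 to 0.16, -0.13 to 0.089 and -0.025 to 0.20 in footprints (hTDP-43 A315T minus WT, hTDP-43 A315T minus hTDP-43, hTDP-43 minus WT), from -0.55 to 0.31 (hTDP-43 A315T) and -0.47 to 0.45 (hTDP-43) against WT in total mRNA, and from -0.32 to 0.72 and -0.40 to 0.67 relative to total mRNA. Camta2 in MN1 footprints ran from -0.10 to 0.76, -0.060 to 0.72 and -0.45 to 0.45, and between the TDP-43 groups in MN1 total mRNA from -0.30 to 0.22. Relative to total mRNA it ran from -0.60 to 0.60 (hTDP-43 A315T) and -1.08 to 0.24 (hTDP-43) in MN1 cells and from -0.20 to 0.15 (hTDP-43) in neurons, and its footprint interaction of the cell types from -0.90 to 0.15. In neurons Camta2 ran from -0.46 to 0.31, -0.46 to 0.018 and -0.33 to 0.47 in footprints and from -0.16 to 0.36, -0.17 to 0.0012 and -0.073 to 0.39 in total mRNA. No Camta2 call changed under any alternative run. The log2 ratio of Camta1 to Camta2 ran from -1.16 to 2.13 (MN1 footprints, hTDP-43 against GFP), -0.14 to 0.44, -0.12 to 0.48 and -0.40 to 0.27 (neuron footprints) and -0.92 to 0.45, -0.22 to 0.14 and -0.87 to 0.50 (neuron total mRNA).

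Over the 12 pairwise comparisons the number of genes called was 0 to 1 as reported, 0 to 283 with the block, 6 to 209 without the filter on low counts, 0 to 11 by DESeq2 and 0 to 1573 with 1 culture left out, which leaves an arm of 1 library assumed to vary like the rest. For the interactions it was 0 as reported, 0 to 15 with the block, 1 to 110 without the filter and 0 to 45 with 1 culture left out. The causes were not tested. Camta2 rested on 5 to 33 counts per MN1 footprint library, which limits what could be detected there.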
